A study of Mus musculus with 16 samples.

Results

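Skeletal muscle genes were followed across 13 mouse mammary tumours and 3 normal mammary glands. The group holds 40 genes of the contractile apparatus, calcium handling, energy supply and gene control of striated muscle: 14 genes typical of fast fibres, 4 of slow fibres and 22 shared by both fibre types. A member was measured where the probe-to-gene table gave a probe set to that gene alone, and where a gene had several, the one whose log2(signal + 8), averaged over the 16 arrays, was highest stood for it. By this rule 35 of the 40 were measured among 12393 genes in all, namely 13 fast, 3 slow and 19 shared members. The slow and fast isoforms of myosin-binding protein C (Mybpc1 and Mybpc2), the thin-filament ruler nebulin (Neb), the AMP deaminase of muscle (Ampd1) and the muscle ubiquitin ligase Trim63 had no such probe set and were not analysed here.

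The tumours came from transgenic mice on the FVB/N background: 7 tumours carried STAT5ca, a constitutively active form of the transcription factor STAT5, and 6 carried STAT5Δ750, a form truncated at its C terminus. The 3 glands were labelled as normal tissue of the FVB/N background. The labels used here do not give the promoter that drives either transgene, the age of the mice, the stage of the glands, the histology of the tumours or whether any tissues came from 1 animal, so p-values measure only the spread between these samples. Total RNA of each tissue was hybridised to an Affymetrix Mouse Genome 430A 2.0 array, and each value is a MAS5 signal, a relative brightness per probe set that cannot be compared between genes. Arrays are called by the number in their labels, such as STAT5ca_177.

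Skeletal muscle fibres shorten when myosin heads of the thick filament pull on actin of the thin filament, and the troponin complex on the thin filament switches this on when calcium is released inside the fibre. Fast and slow fibres use different genes for many of the same parts: slow fibres contract steadily and rely on oxidative metabolism, whereas fast fibres contract quickly and lean more on glycogen. In mice the mammary fat pads lie under the skin, next to a thin sheet of skeletal muscle and over the muscles of the body wall, and mammary epithelium itself forms no skeletal muscle fibres.

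The promoters of 4 members are shown because these genes stand for the patterns described below: Myh4 and Ckm, whose signals were high on all 3 glands and low on nearly all tumours, and Tnni1 and Tnnc1, slow-fibre genes that differed among the glands and exceeded every gland on 1 tumour. Each sequence is from RefSeq on GRCm38.p6 and runs 5′ to 3′ over 250 bases before and 50 bases from the start of transcription, and all 4 genes lie on the plus strand. Capitals mark an E-box with the letters CAGCTG, which myogenic factors such as MyoD and myogenin can bind, a MEF2 site or a CArG box. Myh4 lies at chr11:67237562-67237861, Ckm at chr7:19410844-19411143, Tnni1 at chr1:135799171-135799470 and Tnnc1 at chr14:31208062-31208361.
Myh4: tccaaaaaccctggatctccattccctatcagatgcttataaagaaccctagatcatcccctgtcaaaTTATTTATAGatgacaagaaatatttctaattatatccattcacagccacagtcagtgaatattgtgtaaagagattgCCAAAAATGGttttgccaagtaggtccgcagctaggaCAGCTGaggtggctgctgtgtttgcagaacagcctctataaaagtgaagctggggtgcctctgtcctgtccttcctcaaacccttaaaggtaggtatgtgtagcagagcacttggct
Ckm: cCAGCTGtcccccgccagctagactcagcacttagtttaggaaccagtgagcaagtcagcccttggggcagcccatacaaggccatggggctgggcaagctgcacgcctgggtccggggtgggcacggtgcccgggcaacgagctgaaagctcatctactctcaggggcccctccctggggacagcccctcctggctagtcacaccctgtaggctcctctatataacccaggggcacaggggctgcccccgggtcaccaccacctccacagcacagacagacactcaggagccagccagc
Tnni1: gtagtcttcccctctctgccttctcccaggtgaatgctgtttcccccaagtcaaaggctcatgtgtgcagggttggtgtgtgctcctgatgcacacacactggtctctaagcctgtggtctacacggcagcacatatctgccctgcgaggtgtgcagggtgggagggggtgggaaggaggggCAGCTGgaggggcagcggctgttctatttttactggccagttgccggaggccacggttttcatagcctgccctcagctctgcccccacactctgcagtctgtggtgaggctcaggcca
Tnnc1: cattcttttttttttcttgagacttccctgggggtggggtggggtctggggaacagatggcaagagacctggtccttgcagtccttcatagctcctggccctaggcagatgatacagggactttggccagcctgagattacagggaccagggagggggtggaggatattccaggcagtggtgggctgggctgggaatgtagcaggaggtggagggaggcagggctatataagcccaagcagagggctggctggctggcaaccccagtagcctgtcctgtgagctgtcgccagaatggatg
In Myh4 the MEF2 site began at -182, the CArG box at -104 and the E-box at -67, counted from the start of transcription. The E-box of Ckm began at -249 and that of Tnni1 at -68, and none of the 3 motifs was found in this window of Tnnc1. Both strands were searched, and a gene was counted if any of its annotated starts held the motif. Promoters were found for 32 of the 40 members. CAGCTG stood in 19 of the 32, against 18.3% of 27025 genes with a promoter in the same table. The MEF2 site stood in 5 of the 32 members, against 2.16% of all genes, and the CArG box in 4 of the 32, against 1.81%. A match describes the letters and does not show that a factor binds there.

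All arrays had been scaled to the same trimmed mean signal of 250.1, with medians between 57.3 and 90.7 and highest signals between 5972 and 12074. The beta-actin 3′/5′ ratio, which rises as RNA is degraded, was 1.76 to 5.38 on STAT5ca tumours, 1.27 to 3.52 on STAT5Δ750 tumours and 1.07 to 1.25 on glands, so every tumour lay above every gland. Fitted with this ratio as a covariate, 16 of the 35 members passed between STAT5ca tumours and glands, against 34 without it, and 24 passed between STAT5Δ750 tumours and glands, against 31 without it. Of all 12393 genes, that model called 800 lower in STAT5ca tumours, against 1370 without the ratio. In STAT5Δ750 tumours it called 1181 lower, against 1387. Because the ratio separates tumours from glands, RNA quality and tissue cannot be told apart in that model. On 1 array epithelial signal was low: the luminal keratin Krt8 had a signal of 25.3 on STAT5ca_177, against 3836 to 5376 on the other 6 STAT5ca tumours and 708 to 1880 on glands. STAT5ca_177 was also 1 of the 2 tumours with the most muscle signal, beside STAT5Δ750_178, so counts of called genes that change without both are given both ways.

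Nearly all skeletal muscle genes were lower in tumours of both transgenes than in the glands. In limma's test on log2(signal + 8), adjusted by the Benjamini-Hochberg method over all 12393 genes at a threshold of 0.05, 34 of the 35 members were lower in STAT5ca tumours than in glands and 31 of 35 were lower in STAT5Δ750 tumours than in glands. No member was higher in either comparison, against 4.71% of all genes in STAT5ca tumours and 5.41% in STAT5Δ750 tumours. Without STAT5ca_177 and STAT5Δ750_178, a choice made after seeing the data, 35 of 35 were lower in STAT5ca tumours and 34 of 35 in STAT5Δ750 tumours. Over all genes and with every array, 11.1% (1370) were called lower in STAT5ca tumours and 11.2% (1387) lower in STAT5Δ750 tumours. Without STAT5ca_177 and STAT5Δ750_178 these counts rose too, to 1815 genes in STAT5ca tumours and 1682 in STAT5Δ750 tumours. The members' median log2 change was -6.01 in STAT5ca tumours and -5.07 in STAT5Δ750 tumours, beside a median of -0.03 over all genes in each comparison. Every tumour lay below every gland for 34 of 35 members among STAT5ca tumours and for 32 of 35 among STAT5Δ750 tumours. Over all 12393 genes, the same held for 11.7% among STAT5ca tumours and 17% among STAT5Δ750 tumours. Both comparisons share the same 3 glands. In bulk tissue, fewer cells of a type and less RNA per cell cannot be told apart.

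**Figure D1:**
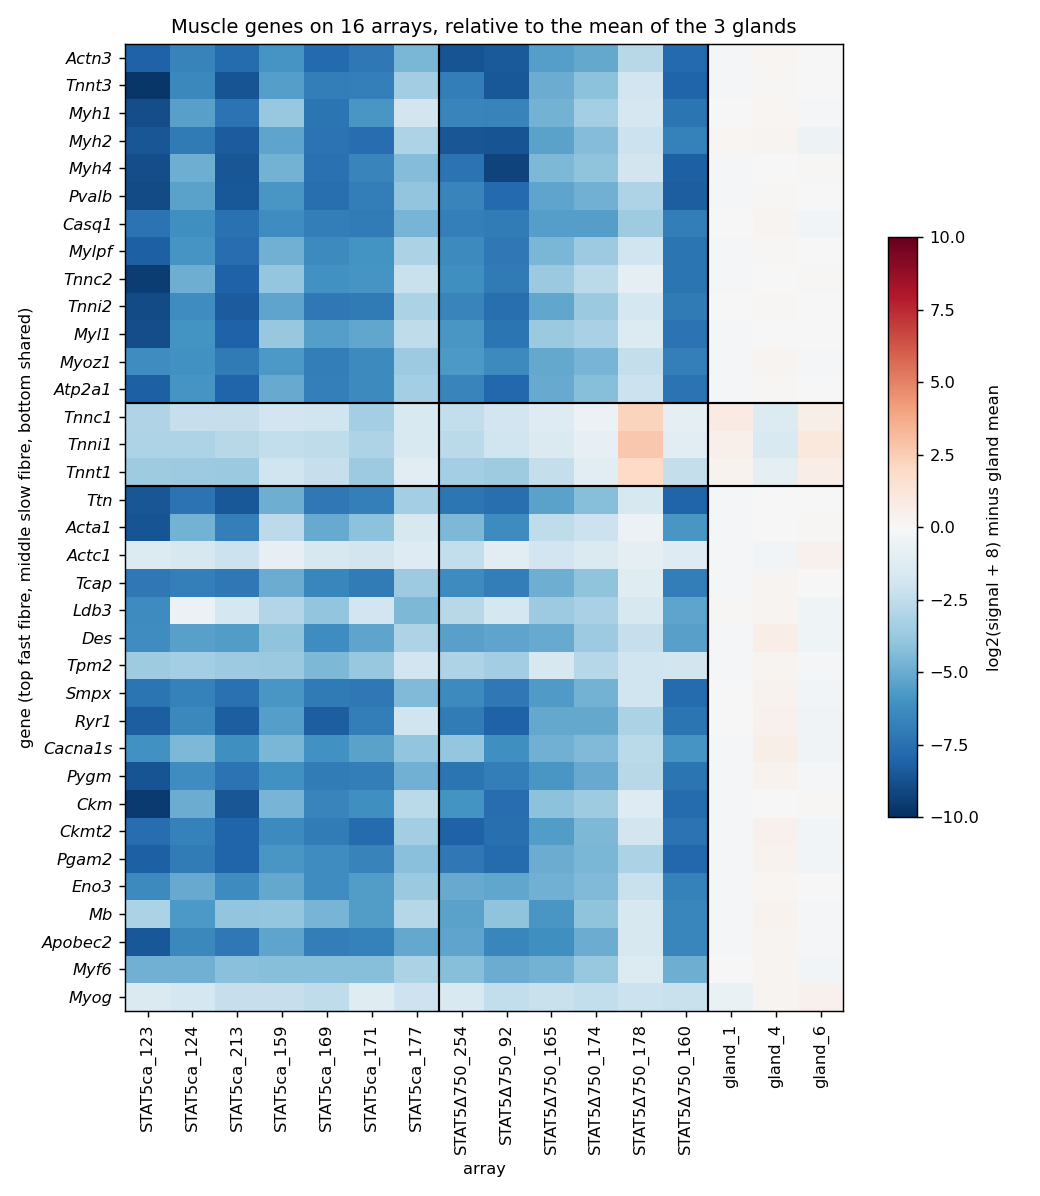
Log2(signal + 8) of the 35 measured members on each of the 16 arrays, minus the mean of the 3 glands, with genes in rows by fibre class and arrays in columns by group. The tumour columns are low throughout for fast and shared genes, except STAT5Δ750_178 and, to a lesser degree, STAT5ca_177, and the slow genes are high on STAT5Δ750_178 and low on gland 4.

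All 13 fast-fibre members were lower in both kinds of tumour. Their median log2 change was -6.49 in STAT5ca tumours and -5.55 in STAT5Δ750 tumours. Some calls of fast members, that of Myh4 among them, were lost with the beta-actin ratio in the model, as listed below. Myh4, the heavy chain of the fastest myosin of mouse muscle, had signals from 9.3 to 383 (median 72.0) on STAT5ca tumours, from 5.3 to 2258 (median 194) on STAT5Δ750 tumours, and of 7461, 7931 and 8475 (glands 1, 4 and 6) on glands. The 3 glands lay close together and every tumour lay below them. The log2 change of Myh4 was -6.49 ± 1.37 (SE) in STAT5ca tumours, with an adjusted p of 0.00393 in limma, and -5.84 ± 1.40 in STAT5Δ750 tumours, with an adjusted p of 0.00948. The other fast myosin heavy chains were lower too. The log2 change of Myh2, the IIa chain, was -6.75 ± 1.29 in STAT5ca tumours and -5.95 ± 1.32 in STAT5Δ750 tumours. That of Myh1, the IIx chain, was -5.78 ± 1.33 in STAT5ca tumours and -5.07 ± 1.36 in STAT5Δ750 tumours. The probe set of Myh1 is of a type that can match near-identical genes, and the promoters of Myh2, Myh1 and Myh4 lie next to each other on chromosome 11, so these 3 paralogs may share signal.

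Actn3, the fast-fibre alpha-actinin that anchors thin filaments at the Z-disc, fell furthest of all members on the log2 scale in both comparisons. Its signals were 11.9 to 221 (median 30.3) on STAT5ca tumours, 5.7 to 761 (median 63.7) on STAT5Δ750 tumours, and 4778, 6171 and 5046 on glands. No tumour came near a gland. The log2 change was -6.83 ± 1.04 in STAT5ca tumours (adjusted p = 0.000301 in limma) and -6.35 ± 1.07 in STAT5Δ750 tumours (adjusted p = 0.000808).

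Among fast members, Tnnc2 had the largest and Casq1 the smallest standard error of the change in both comparisons. Tnnc2, the calcium-binding troponin C of fast fibres, had signals of 1.2 to 1366 (median 100.1) on STAT5ca tumours, 32.3 to 3393 (median 282) on STAT5Δ750 tumours, and 5877, 6571 and 7176 on glands. The groups did not overlap, although single tumours reached far towards the glands. Its log2 change was -5.78 ± 1.46 in STAT5ca tumours (adjusted p = 0.0126 in limma) and -4.65 ± 1.49 in STAT5Δ750 tumours (adjusted p = 0.0438). The call of Tnnc2 was lost in STAT5ca tumours without gland 1 or gland 4, with an adjusted p of up to 0.0564, and in STAT5Δ750 tumours without any 1 gland or any of 7 tumours (STAT5ca_124, STAT5ca_169, STAT5ca_171, STAT5Δ750_254, STAT5Δ750_92, STAT5Δ750_165 and STAT5Δ750_160), with an adjusted p of up to 0.137. Casq1, the calsequestrin that stores calcium in the sarcoplasmic reticulum of fast fibres, had signals of 12.6 to 132 (median 21.1) on STAT5ca tumours, 19.6 to 293 (median 46.2) on STAT5Δ750 tumours, and 3513, 4403 and 2994 on glands. No tumour had 10% of the gland mean of Casq1, which held for no other member. Its log2 change was -6.54 ± 0.68 in STAT5ca tumours (adjusted p = 9.07e-06 in limma) and -5.90 ± 0.69 in STAT5Δ750 tumours (adjusted p = 4.05e-05).

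The remaining fast members were lower by similar amounts. They are the fast troponins T and I (Tnnt3 and Tnni2), the fast myosin light chains Myl1 and Mylpf, the calcium buffer parvalbumin (Pvalb), the Z-disc protein Myoz1 and the calcium pump of fast fibres, Atp2a1. Their log2 changes ran from -6.78 (Tnnt3) to -5.70 (Myl1) in STAT5ca tumours and from -5.96 (Pvalb) to -4.80 (Myl1) in STAT5Δ750 tumours, and all passed in limma. In STAT5Δ750 tumours the calls of Myl1 and Myh1 were lost when gland 1, 4 or 6 was left out. The adjusted p then reached 0.0971 for Myl1 and 0.078 for Myh1. With the beta-actin ratio in the model, Tnnt3, Myh1, Myh2, Myh4, Mylpf, Tnnc2, Tnni2, Myl1 and Atp2a1 did not pass in STAT5ca tumours. The adjusted p there was 0.166 for Myh4 and 0.332 for Tnnc2 in limma. In STAT5Δ750 tumours Tnnt3, Myh1, Myh4, Tnnc2 and Myl1 did not pass in that model. Actn3, Pvalb, Casq1 and Myoz1 passed in both comparisons.

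**Figure D2:**
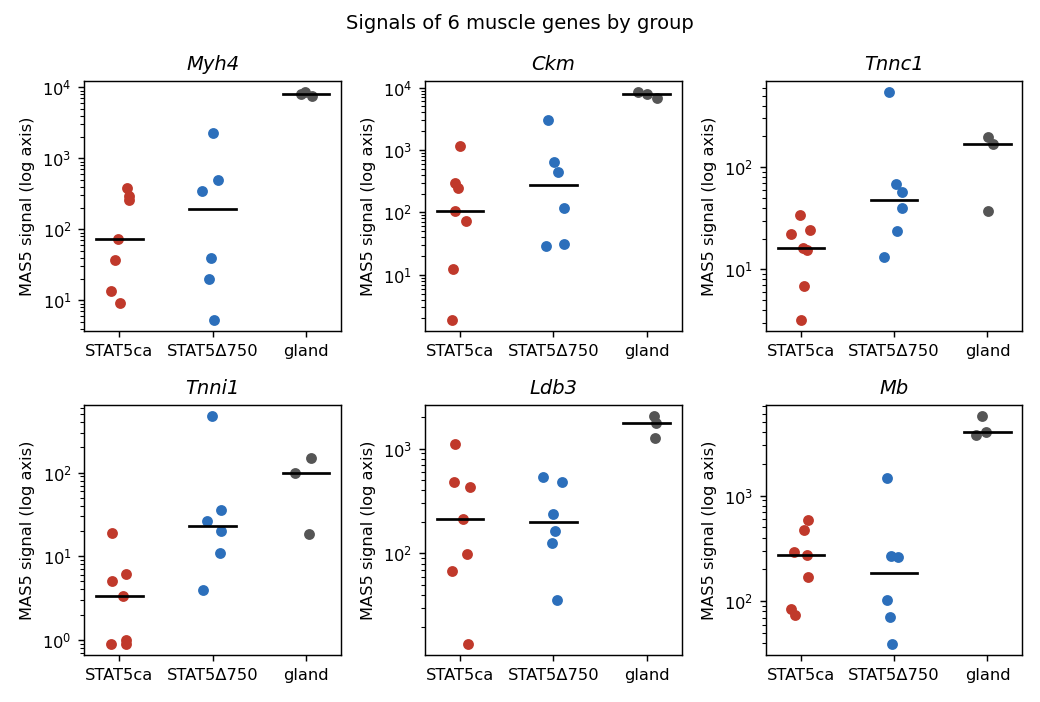
Deposited MAS5 signals (log axis) of Myh4, Ckm, Tnnc1, Tnni1, Ldb3 and Mb on every array, by group from STAT5ca tumours to STAT5Δ750 tumours to glands, with a bar at each group's median. Myh4, Ckm and Mb separate tumours from glands, Tnnc1 and Tnni1 overlap through gland 4 and STAT5Δ750_178, and Ldb3 has 1 STAT5ca tumour, STAT5ca_124, near the glands.

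The slow-fibre members differed from the fast ones on both sides of the comparison, in the glands and in 1 tumour. Of the 3 measured, 2 were lower in STAT5ca tumours and none passed in STAT5Δ750 tumours, and their median log2 change was -2.65 in STAT5ca tumours and -0.90 in STAT5Δ750 tumours. Without STAT5ca_177 and STAT5Δ750_178, 3 of 3 were lower in STAT5ca tumours and 2 of 3 in STAT5Δ750 tumours. Tnnc1, the troponin C of slow and cardiac muscle, had signals of 3.2 to 34.1 (median 16.1) on STAT5ca tumours and 13.1 to 539 (median 48.2) on STAT5Δ750 tumours. On glands 1, 4 and 6 it had 195, 37.6 and 169.4. Gland 4 lay far below the other glands, and the highest STAT5Δ750 tumour, STAT5Δ750_178, lay above all 3. Its change on the log2 scale was -2.33 ± 0.76 in STAT5ca tumours, with an adjusted p of 0.0492 in limma, and -0.83 ± 0.78 in STAT5Δ750 tumours, with an adjusted p of 0.521.

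Tnni1, the inhibitory troponin of slow fibres, had signals of 0.9 to 18.8 (median 3.3) on STAT5ca tumours, 3.9 to 474 (median 23.1) on STAT5Δ750 tumours, and 99.3, 18.4 and 148 on glands. The order was that of Tnnc1, with STAT5Δ750_178 above and gland 4 below the rest of their groups. On the log2 scale the change was -2.65 ± 0.84 in STAT5ca tumours, with an adjusted p of 0.0435 in limma, and -0.90 ± 0.86 in STAT5Δ750 tumours, with an adjusted p of 0.525. Tnnt1, the tropomyosin-binding troponin of slow fibres, had signals of 0.6 to 42.2 (median 1.8) on STAT5ca tumours, 1.7 to 439 (median 13.3) on STAT5Δ750 tumours, and 139, 48.6 and 166 on glands. All STAT5ca tumours lay below all glands, yet Tnnt1 was the only member that did not pass there, with a log2 change of -2.86 ± 0.95 and an adjusted p of 0.0511 in limma. In STAT5Δ750 tumours it had -1.80 ± 0.97 and an adjusted p of 0.23.

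In STAT5ca tumours the slow members lay near the threshold, and their calls changed when any of many single arrays was left out. Leaving out 1 array at a time, the adjusted p in STAT5ca tumours ran from 0.00623 to 0.22 for Tnnc1, from 0.00269 to 0.2 for Tnni1 and from 0.00621 to 0.18 for Tnnt1 in limma. The calls of Tnnc1 and Tnni1 were lost without gland 1, without gland 6, without any STAT5ca tumour but STAT5ca_177, and without STAT5Δ750_165, STAT5Δ750_174 or STAT5Δ750_160, and that of Tnnc1 also without STAT5Δ750_92. The calls of Tnnc1 and Tnni1 were also lost with the beta-actin ratio in the model. Tnnt1 passed in STAT5ca tumours without STAT5ca_177, STAT5Δ750_254, STAT5Δ750_92 or STAT5Δ750_178. Without STAT5Δ750_178 the log2 change in STAT5Δ750 tumours was -1.44 for Tnnc1 (adjusted p = 0.0925), -1.62 for Tnni1 (adjusted p = 0.0598) and -2.56 for Tnnt1 (adjusted p = 0.018). Gland 4 had the lowest of the 3 gland signals for 3 of 3 slow members and the highest for 26 of the 32 fast and shared members. The highest gland exceeded the lowest by 5.19-fold for Tnnc1, 8.03-fold for Tnni1 and 3.42-fold for Tnnt1. Over the 32 fast and shared members this ratio ran from 1.12-fold for Ttn to 2.66-fold for Myog.

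All 8 measured shared members of the sarcomere and cytoskeleton were lower in STAT5ca tumours. In STAT5Δ750 tumours 7 of 8 were lower, or 8 of 8 without STAT5ca_177 and STAT5Δ750_178. With the beta-actin ratio in the model, Ttn, Acta1, Actc1, Tcap and Ldb3 did not pass in STAT5ca tumours. The adjusted p there was 0.104 for Ttn and 0.565 for Acta1 in limma. The call of Ldb3 in STAT5Δ750 tumours was lost in that model too. Ttn, titin, the giant elastic protein that spans the sarcomere from Z-disc to M-line, had signals of 7.2 to 526.1 (median 31.7) on STAT5ca tumours, 14.5 to 1880.4 (median 80.6) on STAT5Δ750 tumours, and 5315, 5937 and 5916 on glands. Every tumour lay below every gland. Titin changed by -6.67 ± 1.25 on the log2 scale in STAT5ca tumours (adjusted p = 0.00167 in limma) and -5.66 ± 1.28 in STAT5Δ750 tumours (adjusted p = 0.00668). Tcap, which caps titin at the Z-disc, and Smpx, a small costamere protein, were lower by close to the same amount. The log2 change of Tcap was -6.16 ± 1.04 in STAT5ca tumours and -5.05 ± 1.07 in STAT5Δ750 tumours, and that of Smpx was -6.56 ± 0.94 in STAT5ca tumours and -5.59 ± 0.96 in STAT5Δ750 tumours.

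Acta1, the skeletal alpha-actin of the thin filament, had at least 10% of its gland mean on 5 of the 13 tumours. It had signals of 13.0 to 2671 (median 305) on STAT5ca tumours, 94.3 to 5374 (median 881) on STAT5Δ750 tumours, and 7214, 8399.7 and 8848 on glands. The groups did not overlap, and STAT5Δ750_178 had 65.9% of the gland mean. Its log2 change of -4.78 ± 1.34 in STAT5ca tumours passed, with an adjusted p of 0.0232 in limma, and -3.64 ± 1.38 in STAT5Δ750 tumours did not, with an adjusted p of 0.0834. In STAT5ca tumours the call was lost without any 1 of the 3 glands, with an adjusted p of up to 0.0898. In STAT5Δ750 tumours Acta1 passed without STAT5ca_177 and without STAT5Δ750_178, where the adjusted p was 0.0424.

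Actc1 and Tpm2 had smaller changes than most members. Actc1, the cardiac alpha-actin that is also made in developing muscle, was low on all arrays, with 4.6 to 24.0 (median 10.7) on STAT5ca tumours, 2.1 to 21.9 (median 13.6) on STAT5Δ750 tumours, and 41.8, 38.5 and 65.6 on glands. Its log2 change was -1.51 ± 0.32 in STAT5ca tumours and -1.52 ± 0.33 in STAT5Δ750 tumours, and both passed in limma (adjusted p = 0.00446 and 0.00515). Tpm2, beta-tropomyosin, which lies along the thin filament and is also made in smooth muscle and other contractile cells, had 107 to 677 (median 196) on STAT5ca tumours, 222 to 839.7 (median 493.4) on STAT5Δ750 tumours, and 2321, 3008 and 2371 on glands. On this probe set the highest STAT5Δ750 tumour was STAT5Δ750_165, whereas the other 3 probe sets of Tpm2 were highest on STAT5Δ750_178. The log2 change of Tpm2 was -3.50 ± 0.47 in STAT5ca tumours (adjusted p = 8.95e-05 in limma) and -2.46 ± 0.48 in STAT5Δ750 tumours (adjusted p = 0.00237). Des, desmin, the intermediate filament that links myofibrils, had 14.9 to 191 (median 31.7) on STAT5ca tumours, 32.3 to 336 (median 39.7) on STAT5Δ750 tumours, and 1529, 2687 and 1245 on glands. It changed by -5.12 ± 0.72 on the log2 scale in STAT5ca tumours and -4.54 ± 0.73 in STAT5Δ750 tumours, and both passed in limma.

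Ldb3, which binds alpha-actinin at the Z-disc, broke the order of the tumours. Its signals were 13.8 to 1098 (median 212.8) on STAT5ca tumours, 35.6 to 538 (median 200.5) on STAT5Δ750 tumours, and 1771, 2043 and 1257 on glands. The highest STAT5ca tumour was STAT5ca_124, at 65.0% of the gland mean on an array where the shared members had a median of 1.64%. On the log2 scale Ldb3 changed by -3.13 ± 0.98 in STAT5ca tumours (adjusted p = 0.0401 in limma) and -3.05 ± 1.004 in STAT5Δ750 tumours (adjusted p = 0.0483). Both calls were lost without any 1 of the 3 glands and without STAT5ca_159, STAT5ca_169 or STAT5Δ750_174. The call in STAT5Δ750 tumours was also lost without STAT5ca_213, STAT5ca_171, STAT5Δ750_254, STAT5Δ750_165 or STAT5Δ750_160. The adjusted p then reached 0.152 in STAT5ca tumours and 0.169 in STAT5Δ750 tumours.

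The probe sets of Ldb3 and Tpm2 disagreed on how low the tumours were. A second probe set of Ldb3 had signals of 1.2 to 87.9 on STAT5ca tumours, 7.3 to 465 on STAT5Δ750 tumours, and 2687, 3892 and 2335 on glands. It put every tumour far below every gland, with no high value on STAT5ca_124. Another, dimmer probe set of Ldb3 had 276 on STAT5ca_124, against 113, 78.4 and 197 on the glands. The probe set of Tpm2 that was dimmest on glands had 11.8 to 134 on STAT5ca tumours, 17.5 to 238 on STAT5Δ750 tumours, and 1259, 1877 and 1338 on glands, a wider gap than the one used. By the highest mean signal, not the highest mean log2 value, another probe set would stand for Ldb3 and for Tpm2, and for no other member. Ldb3 then had a log2 change of -6.70 in STAT5ca tumours (adjusted p = 0.000104 in limma) and -5.94 in STAT5Δ750 tumours (adjusted p = 0.000475). Tpm2 then had -5.85 in STAT5ca tumours (adjusted p = 0.000145) and -4.62 in STAT5Δ750 tumours (adjusted p = 0.00154). That probe set of Tpm2 is not the dimmest one. It had 17.8 to 388.5 on STAT5ca tumours, 34.1 to 703.9 on STAT5Δ750 tumours, and 3698, 4400 and 2711 on glands. This choice was made after seeing the data, and it leaves the probe sets of the other members as they were. Of the 35 members, 27 had 1 probe set and 8 had several, 48 in all.

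**Figure D3:**
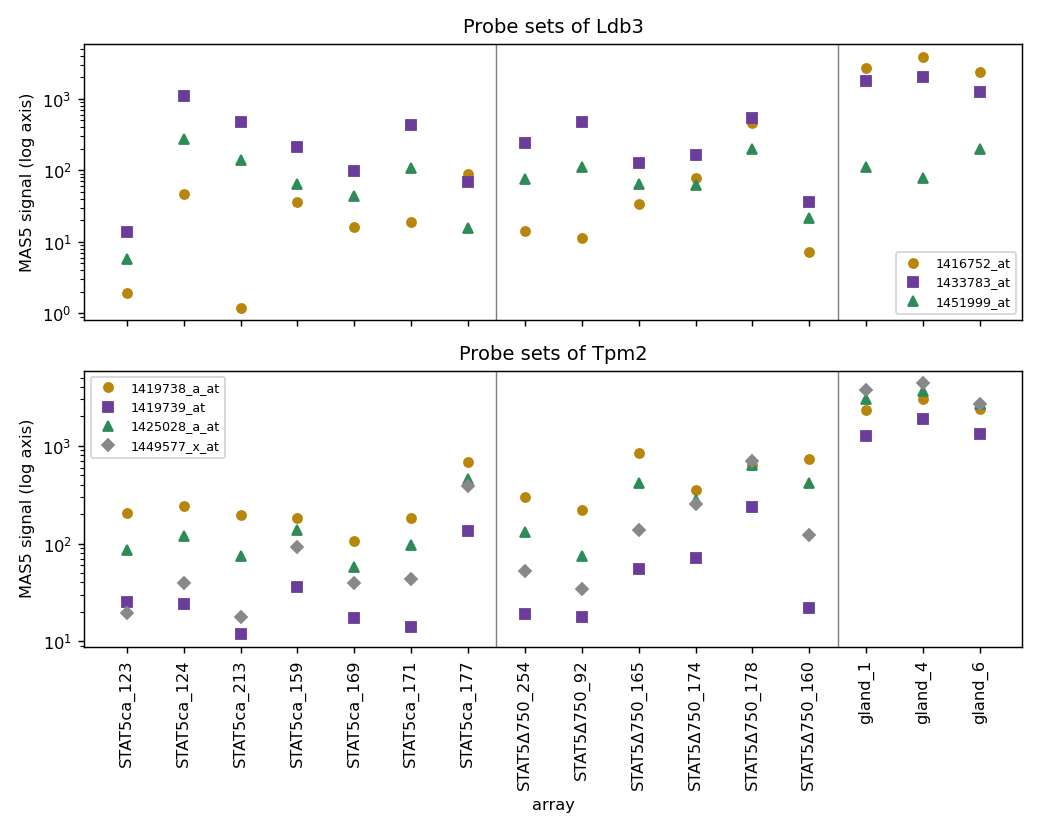
MAS5 signals (log axis) of each probe set of Ldb3 and Tpm2 on the 16 arrays, by group from STAT5ca tumours to STAT5Δ750 tumours to glands. The probe set of Ldb3 used for the gene spreads from 13.8 to 1098 on STAT5ca tumours, whereas its second probe set stays at or below 87.9 there.

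Both members of the calcium release machinery were lower in both kinds of tumour. Ryr1, the channel that releases calcium from the sarcoplasmic reticulum, had signals of 2.1 to 771 (median 16.9) on STAT5ca tumours, 3.4 to 333 (median 47.8) on STAT5Δ750 tumours, and 2977, 4049 and 2399 on glands. Ryr1 was the only member besides Tpm2, Ldb3, Actc1 and Myog whose highest tumour was not STAT5Δ750_178: STAT5ca_177 had 24.5% of the gland mean. Its log2 change was -6.52 ± 1.203 in STAT5ca tumours (adjusted p = 0.00145 in limma) and -5.96 ± 1.23 in STAT5Δ750 tumours (adjusted p = 0.00366). The call of Ryr1 in STAT5ca tumours was lost with the beta-actin ratio in the model (adjusted p = 0.0876 in limma). Cacna1s, the voltage sensor in the transverse tubules that opens this channel, had a log2 change of -5.23 ± 0.65 in STAT5ca tumours and -4.64 ± 0.67 in STAT5Δ750 tumours.

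All 6 measured energy members were lower in both kinds of tumour. Ckm, the muscle creatine kinase that regenerates ATP from phosphocreatine, had signals of 1.9 to 1158 (median 105) on STAT5ca tumours, 29.3 to 3073 (median 280) on STAT5Δ750 tumours, and 6944, 7908 and 8393 on glands. No tumour reached a gland. On the log2 scale Ckm changed by -6.17 ± 1.41 in STAT5ca tumours (adjusted p = 0.0066 in limma) and -5.05 ± 1.44 in STAT5Δ750 tumours (adjusted p = 0.025), and the second call was lost without any 1 of the 3 glands, with an adjusted p of up to 0.0934. Both calls of Ckm were lost with the beta-actin ratio in the model. The adjusted p in limma was then 0.232 in STAT5ca tumours and 0.13 in STAT5Δ750 tumours. Pygm, the muscle glycogen phosphorylase, had a log2 change of -6.72 ± 0.87 in STAT5ca tumours and -5.88 ± 0.89 in STAT5Δ750 tumours. The sarcomeric mitochondrial creatine kinase Ckmt2 and the glycolytic enzymes Pgam2 and Eno3 of muscle had changes between -6.69 and -5.49 in STAT5ca tumours and between -5.91 and -4.73 in STAT5Δ750 tumours.

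Mb, myoglobin, which stores oxygen in oxidative fibres, had a smaller change than the other energy members in both comparisons. Its signals were 73.5 to 591 (median 273) on STAT5ca tumours, 39.7 to 1469 (median 183) on STAT5Δ750 tumours, and 3787, 5669 and 3994 on glands. On STAT5ca_123, where 19 of the 35 members had a signal under 8, Mb had 477. On the log2 scale it changed by -4.27 ± 0.84 in STAT5ca tumours (adjusted p = 0.00245 in limma) and -4.54 ± 0.87 in STAT5Δ750 tumours (adjusted p = 0.00208).

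Apobec2, a striated-muscle member of the cytidine deaminase family, had signals of 1.5 to 87.7 (median 24.0) on STAT5ca tumours, 28.8 to 1134 (median 60.5) on STAT5Δ750 tumours, and 3205, 4029 and 3055 on glands. A single tumour, STAT5Δ750_178, was high, and the next STAT5Δ750 tumour had 100.4. The log2 change was -6.59 ± 0.88 in STAT5ca tumours (adjusted p = 9.18e-05 in limma) and -5.16 ± 0.90 in STAT5Δ750 tumours (adjusted p = 0.00116).

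Both myogenic factors, the transcription factors that turn on muscle genes, were lower in both kinds of tumour. Myf6, also called MRF4 and the main such factor of adult fibres, had 1.4 to 22.3 (median 6.3) on STAT5ca tumours, 0.5 to 94.8 (median 4.1) on STAT5Δ750 tumours, and 274, 311 and 209 on glands. All tumours but STAT5ca_177 and STAT5Δ750_178 had 11.3 or less, and the groups did not overlap. Its log2 change was -4.25 ± 0.60 in STAT5ca tumours (adjusted p = 0.000141 in limma) and -4.02 ± 0.61 in STAT5Δ750 tumours (adjusted p = 0.000375). Myog, myogenin, which drives myoblasts to differentiate, had 1.0 to 13.6 (median 4.0) on STAT5ca tumours, 1.2 to 9.6 (median 2.7) on STAT5Δ750 tumours, and 23.3, 52.4 and 61.9 on glands. Every tumour lay below every gland, and the log2 change was -1.94 ± 0.31 in STAT5ca tumours (adjusted p = 0.000463 in limma) and -2.18 ± 0.32 in STAT5Δ750 tumours (adjusted p = 0.000271). The added 8 makes such changes of low signals smaller than the ratio of the signals.

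**Figure D4:**
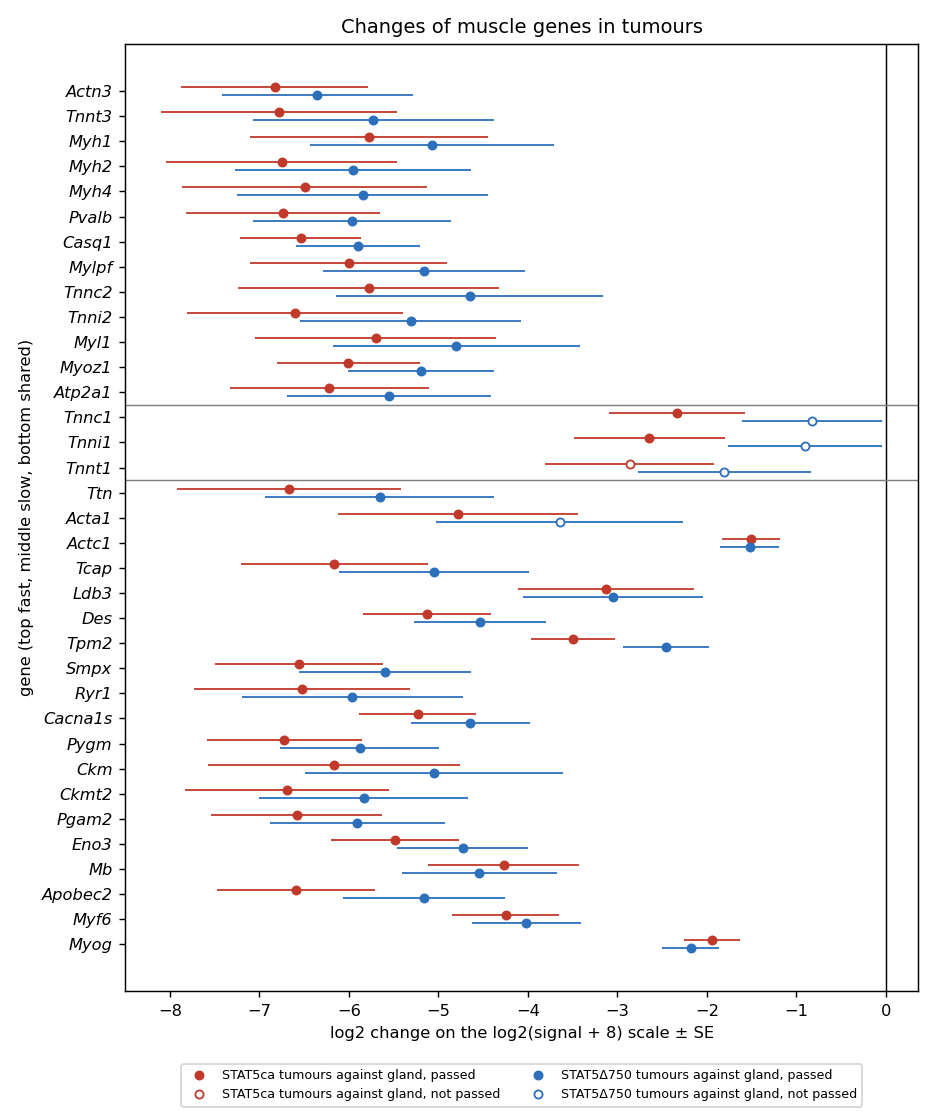
Log2 change of each measured member, with its standard error, in STAT5ca tumours (n = 7) and STAT5Δ750 tumours (n = 6) against glands (n = 3). Filled points passed limma's test at an adjusted p of 0.05. The open points are Tnnt1 in both comparisons and Tnnc1, Tnni1 and Acta1 in STAT5Δ750 tumours.

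The tumours differed widely in how much muscle signal they kept. Each member's signal was set as a percentage of its mean over the 3 glands, and a member was counted as kept at 10% or more. Such counts reached 36 of 245 pairs of member and array among STAT5ca tumours and 59 of 210 among STAT5Δ750 tumours. Actc1, Myog and the 3 slow members, whose gland signals are low, gave 18 of the 36 among STAT5ca and 20 of the 59 among STAT5Δ750 tumours, and for Actc1 and Myog the 10% mark lies under a signal of 8, where values carry no order. Without STAT5ca_177 and STAT5Δ750_178, 20 of 210 pairs were kept among STAT5ca tumours and 26 of 175 among STAT5Δ750 tumours, of which 6 among STAT5ca and 10 among STAT5Δ750 tumours came from the remaining members. STAT5Δ750_178 alone kept 33 of 35 members, 12 fast, 3 slow and 18 shared, with Casq1 at 8.05% and Myog at 7.63% as the exceptions. STAT5ca_177 kept 16 members, 6 fast, 3 slow and 7 shared. STAT5Δ750_174 kept 8, and the other 10 tumours kept between 2 and 6. The beta-actin 3′/5′ ratio was 1.33 on STAT5Δ750_178, 2.19 on STAT5ca_177 and 2.72 on STAT5Δ750_174. It was 5.23 on STAT5ca_213, which kept 2 members, and 3.72 on STAT5ca_123, which kept 3. On STAT5ca_171, which also kept 3, the ratio was 1.76. The lowest ratio of all tumours, 1.27, was on STAT5Δ750_165, which kept 6, and the highest, 5.38, on STAT5ca_124, which kept 4. The part of RNA quality in the order of the tumours was not tested.

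STAT5Δ750_178 had the highest signal of all 13 tumours for 30 of the 35 members. Its median was 25.5% of the gland mean over fast members, 402% over slow members and 26.5% over shared members. The fast members alone ranged from 8.05% for Casq1 to 51.9% for Tnnc2 on this array. The slow members were above every gland there, with Tnnc1 at 402%, Tnni1 at 535% and Tnnt1 at 372% of their gland means. On no other tumour did any member exceed every gland.

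STAT5ca_177 had the second highest tumour signal for 24 members. Its medians were 9.45% over fast, 25.4% over slow and 8.65% over shared members. Myh1 at 27.6%, Ryr1 at 24.5% and Acta1 at 32.8% of the gland mean were among its highest. At the other end, STAT5ca_123 was the lowest tumour for 16 of the 35 members, with medians of 0.107% over fast, 1.53% over slow and 0.292% over shared members. Over all 13 tumours the fast median ran from 0.107% to 25.5%, the slow median from 1.10% to 402% and the shared median from 0.292% to 26.5%. The slow class rests on 3 genes and on a gland mean lowered by gland 4, where their median was 28.0% of that mean. Slow percentages are also not comparable with fast ones at the low end: a signal of 8 equals 5.97% to 9.04% of the gland mean of a slow member and 0.0965% to 0.256% of that of a fast member.

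**Figure D5:**
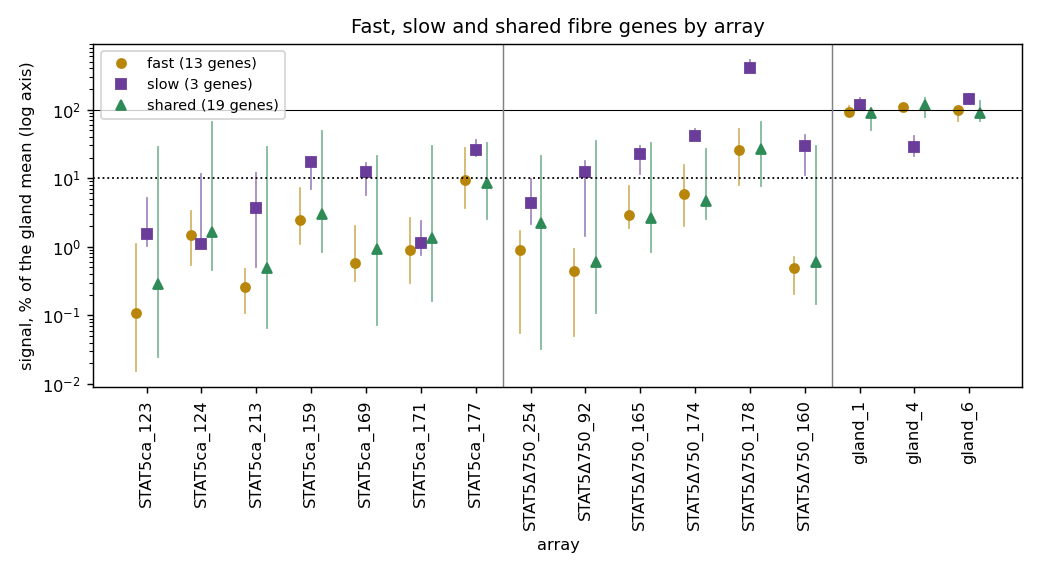
Percentage of the gland mean (log axis) on each array for fast, slow and shared members, as the median with a line from the lowest to the highest member, arrays by group from STAT5ca tumours to STAT5Δ750 tumours to glands. The dotted line marks 10%. Fast and shared medians pass it on 1 tumour, STAT5Δ750_178, where the slow median is 402%, and slow members are low on gland 4.

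No skeletal muscle gene was called different between the tumours of the 2 transgenes. In limma, 0 of the 35 members and 0 of all 12393 genes (0%) passed between STAT5ca and STAT5Δ750 tumours, and 3 members and 686 genes had an unadjusted p below 0.05. The members' median log2 difference, STAT5ca minus STAT5Δ750, was -0.81, and single members ran from -1.74 for Tnni1 to 0.27 for Mb. The 3 members below the unadjusted threshold were Tpm2 (-1.04 ± 0.38, adjusted p = 0.846 in limma), Tnni1 (-1.74 ± 0.68, adjusted p = 0.846) and Tnnc1 (-1.51 ± 0.62, adjusted p = 0.878). Leaving out 1 array at a time, the members' median difference ran from -1.31 without STAT5ca_177 to -0.21 without STAT5Δ750_178, with -0.50 without STAT5ca_123, and without both STAT5ca_177 and STAT5Δ750_178 it was -0.64. Standard errors of up to 1.18 mean that this does not show the tumours to be alike.

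Many other genes of skeletal muscle, from lists not limited to the members, were called lower as well, and none was called higher. The share of all genes called lower was 11.1% in STAT5ca and 11.2% in STAT5Δ750 tumours. The share called higher was 4.71% in STAT5ca and 5.41% in STAT5Δ750 tumours. Among 26 measured genes of the sarcomere, 20 were lower in STAT5ca tumours and 18 in STAT5Δ750 tumours, with median log2 changes of -3.77 and -3.26 beside -0.03 over all genes. Without STAT5ca_177 and STAT5Δ750_178, 22 were lower in STAT5ca tumours and 21 in STAT5Δ750 tumours. The genes include Mylk2, the skeletal myosin light chain kinase, with -4.91 in each comparison. Mybph, a myosin-binding protein, had -4.67 in STAT5ca and -4.49 in STAT5Δ750 tumours, and Xirp1, an actin-binding repeat protein of striated muscle, had -3.97 in STAT5ca and -3.62 in STAT5Δ750 tumours. Among 21 genes of excitation and calcium handling, 14 were lower in each comparison, such as Hrc, a calcium-binding protein of the sarcoplasmic reticulum (-4.60 in STAT5ca and -4.22 in STAT5Δ750 tumours). Among 14 energy genes, 9 were lower in each, such as Slc2a4, the insulin-responsive glucose transporter shared with fat (-4.32 in STAT5ca and -3.88 in STAT5Δ750 tumours). Among 11 regulators, 4 were lower in each, such as Myod1, the factor that commits cells to muscle (-2.19 in STAT5ca and -2.29 in STAT5Δ750 tumours), and Mef2c, a partner of the myogenic factors (-4.04 in STAT5ca and -3.75 in STAT5Δ750 tumours). Without both arrays, 11 energy genes were lower in STAT5ca and 10 in STAT5Δ750 tumours, 6 regulators in STAT5ca and 5 in STAT5Δ750 tumours, and 15 genes of excitation and calcium handling in STAT5ca tumours. Of all 12393 genes, 1815 were then called lower in STAT5ca and 1682 in STAT5Δ750 tumours.

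Some slow-type genes outside the members, singled out after their values were seen, were also lowest of the glands on gland 4 and above every gland on STAT5Δ750_178. Myh7, the slow myosin heavy chain, had 2.9 to 21.2 on STAT5ca tumours and 1.9 to 907 on STAT5Δ750 tumours, highest on STAT5Δ750_178, against 242, 42.3 and 296 on glands 1, 4 and 6. Myl2, the slow regulatory light chain, had 963 on STAT5Δ750_178, against 231, 40.2 and 287 on the glands. Myl3, the slow essential light chain, had 260.3 on STAT5Δ750_178, against 72.1, 26.6 and 95.1 on the glands. Other genes linked to slow fibres did not have this order. Csrp3, a Z-disc LIM protein, had 333 on STAT5Δ750_178, against 875, 606 and 435 on the glands. Myoz2, a Z-disc protein of slow and cardiac muscle, had 259.7 on STAT5Δ750_178, against 320.5, 242 and 243 on the glands. Tpm3, a tropomyosin of slow fibres that is also made in many other cells, had 1427 on STAT5Δ750_178, against 1523, 1422 and 1564 on the glands. Myh7, Myl2 and Myl3 are also made in the heart. Of the 10 genes of the cardiac list, 1 was lower in each comparison, the atrial light chain Myl4. It had 81.6, 102.6 and 57.4 on glands 1, 4 and 6 and 16.7 on STAT5Δ750_178. The sum of the list was 74.8 to 253 on STAT5ca tumours, 102 to 324 on STAT5Δ750 tumours (157 on STAT5Δ750_178) and 156 to 247 on glands. Of its other atrial genes, Myl7 and Gja5 were under 8 on every array, whereas Nppa reached 16.4 on STAT5Δ750_165.

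Many white and brown fat, B cell and endothelium markers, of tissues that may lie beside muscle in a mammary fat pad, were also lower in tumours. Smooth muscle and myoepithelial markers were lower in part, and luminal epithelium markers were not. Over all genes, 11.1% were called lower in STAT5ca tumours and 11.2% in STAT5Δ750 tumours. The part of these tissues in the result was not tested. White adipocyte genes were lower for 11 of 11 measured in STAT5ca tumours and 10 of 11 in STAT5Δ750 tumours (11 of 11 without STAT5ca_177 and STAT5Δ750_178), and their summed signal was 1855 to 8640.2 on STAT5ca tumours, 1709 to 12834 on STAT5Δ750 tumours and 30799 to 34205 on glands. Brown fat genes were lower for 4 of 7 in each, with sums of 239 to 1268 on STAT5ca tumours, 131 to 1389 on STAT5Δ750 tumours and 4753 to 11113 on glands. STAT5Δ750_178 had the highest white adipocyte sum of all tumours, and 5 of the 11 genes were highest there. The lipoprotein lipase Lpl gave 5269 of that sum and the carbonic anhydrase Car3 4695. Whether these 2 signals came from fat, muscle or other cells was not tested. The brown fat list shares Cox8b and Cox7a1, respiratory chain subunits, with striated muscle. Without them the sum was 1037 on STAT5ca_124, 847 on STAT5ca_123 and 684 on STAT5Δ750_178. Most of it was 1 gene, Cidea, with 907 on STAT5ca_124, 683 on STAT5ca_123 and 632 on STAT5Δ750_178. Ucp1 had 0.7, 86.5 and 0.6 on these arrays. Which cells gave the Cidea signal was not tested. B cell genes were lower for 6 of 6 in each, with sums of 42.4 to 1437 on STAT5ca tumours, 38.6 to 1524 on STAT5Δ750 tumours and 2280 to 4257 on glands. Endothelium genes were lower for 6 of 8 in each, with sums of 436 to 1432 on STAT5ca tumours, 745 to 1085 on STAT5Δ750 tumours and 2208 to 2935 on glands. Smooth muscle and myoepithelial genes, which share contractile proteins with the members, were lower for 5 of 12 in STAT5ca tumours and 3 of 12 in STAT5Δ750 tumours, with sums of 820.1 to 3063 on STAT5ca tumours, 1391 to 6780.3 on STAT5Δ750 tumours and 3086 to 4409.8 on glands. None of the 10 luminal epithelium genes was lower. In STAT5ca tumours 1 was higher (Cdh1), and in STAT5Δ750 tumours 2 were (Cdh1 and Cldn4). The sums of the 10 genes were 790.3 (STAT5ca_177) to 34935 on STAT5ca tumours, 18546 to 33782 on STAT5Δ750 tumours and 5018 to 13578 on glands. Without STAT5ca_177 and STAT5Δ750_178, 8 were higher in each comparison. Over all genes the same fit called 1213 higher in STAT5ca and 1045 in STAT5Δ750 tumours, against 584 and 670 with every array. STAT5ca_177 had been singled out partly for its low signal of Krt8, a gene of this list. Leaving it out therefore favours higher counts here, and no conclusion is drawn from the 8.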

How the data were processed

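Values were the deposited MAS5 signal intensities of 22690 probe sets on 16 arrays, scaled by the authors to a trimmed mean near 250.1 on each array, as read from the values. MAS5 is named per the labels, without a version. Its settings, and scan or hybridisation batches, are not given in the sources used here. Of the probe sets, 20393 had 1 gene symbol, 691 several and 1606 none, among them 64 controls, and only the first were used. Each of 12393 genes was represented by the probe set whose average log2(signal + 8) was highest. By the highest mean signal another would stand for 107 genes, Ldb3 and Tpm2 among them. The 40 members, the comparison lists, the 10% mark for kept genes and the genes named (all members, and up to 4 per other muscle list by adjusted p) were chosen with earlier results of these data known. Log2(signal + 8) was fitted with limma 3.58.1 in R 4.3.3, with all 3 groups in 1 model (13 residual degrees of freedom), and p-values were adjusted over all genes. No filter on low values was set. A filter at the 40th percentile of signal (35.4) on 3 arrays, which the 3 glands alone can meet, passed 34 of 35 members, and one at the 60th percentile (134.8) passed 32. Percentages of the gland mean were taken on the signals. The fit was tested on simulated data. Alternatives changed the scaling, offset, filter, probe-set rules, limma settings, groups fitted and actin covariate, and left out each array. The number of arrays limits the precision. Figures were drawn with matplotlib 3.10.9.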

Additional observations from a re-analysis of the deposited data

Results flagged for a closer look

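In 9 of 70 sets made of 1 member in 1 tumour group, a single array stood far from the others. Chance gives this in about 1 of 20 independent sets. The sets here share arrays and their members move together, so that rate is no yardstick for the 9. On STAT5ca_177 the signal was 236.6 for the Z-disc gene Myoz1, against 15.0 to 51.6 on the other STAT5ca tumours. On the same array it was 18.8 for slow troponin I (Tnni1), against 0.9 to 6.1, and 676.5 for beta-tropomyosin (Tpm2), against 106.6 to 239.8. The mitochondrial creatine kinase Ckmt2 had 214.2 there, against 1.6 to 20.9, and the myogenic factor Myf6 had 22.3, against 1.4 to 6.5. On STAT5Δ750_178 the signal was 473.8 for Tnni1, against 3.9 to 36.0 on the remaining 5 tumours of that transgene. Apobec2 had 1134.0 there, against 28.8 to 100.4, and Myf6 had 94.8, against 0.5 to 11.3. On STAT5Δ750_254 myogenin (Myog) had 9.6, against 1.2 to 3.5 elsewhere among STAT5Δ750 tumours. For Tnni1 and Myf6 among STAT5ca tumours and for Myog, the signals on the other arrays lay under 8, where values carry no order. The cause of the 9 outlying values was not tested.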

How the results depend on the processing

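No paired analysis was possible because the groups share no replicate numbers in the labels. Over 29 alternatives no change of a member reversed its sign, 19 of 35 members changed call at least once in STAT5ca tumours and 10 of 35 in STAT5Δ750 tumours, and no gene passed between the tumours under any of them. With the actin ratio as a covariate, 968 genes and 16 members were called in STAT5ca tumours, against 1954 genes and 34 members without it, and the members' median log2 change was -4.07. Array weights gave 4723 genes in STAT5ca and 4371 in STAT5Δ750 tumours, against 2057 in STAT5Δ750 tumours without weights. Leaving out 1 array at a time gave 1061 to 2976 genes and 29 to 35 members in STAT5ca tumours, and 1012 to 2823 genes and 26 to 33 members in STAT5Δ750 tumours. The lowest gene counts came without gland 4 (1061 in STAT5ca and 1012 in STAT5Δ750 tumours) or gland 1 (1138 in STAT5ca and 1111 in STAT5Δ750 tumours), and the highest in STAT5ca tumours without STAT5ca_177 (2976). Without STAT5ca_177 and STAT5Δ750_178 together, a choice made after seeing the data, 3028 genes were called in STAT5ca tumours. Scaling to a common median moved the median log2 change of all genes to 0.17 in STAT5ca tumours, to 0.06 in STAT5Δ750 tumours and to 0.11 between the tumours, and called 31 members in STAT5ca and 29 in STAT5Δ750 tumours. The cause of these shifts was not tested. Signals near or under 8 carry no order, which limits the changes of Actc1, Myog and the slow members.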

Other observations

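Fabp3, the fatty acid carrier of oxidative muscle and heart, was singled out after its values were seen. It had signals of 20.6 to 2485 on STAT5ca tumours and 34.4 to 7797 on STAT5Δ750 tumours, against 1533, 2084 and 4675 on glands 1, 4 and 6. Its highest array was STAT5Δ750_178, the array on which the slow troponins exceeded every gland. Unlike the slow troponins, it was not lowest on gland 4. Nor did it follow the fast members among STAT5ca tumours. Fabp3 had 2485 on STAT5ca_213, where the fast median was 0.263% of the gland mean. On STAT5ca_177, where the fast median was 9.45%, it had 112. Which cells gave the Fabp3 signal was not tested. Ucp1, the uncoupling protein of brown fat, had 0.6 on STAT5Δ750_178 and at most 86.5 on any tumour, against 3139, 2162 and 296 on the glands. Adipoq, the adipocyte hormone adiponectin, had 414 on STAT5Δ750_178, the highest of the 13 tumours, against 4736, 4505 and 5063 on the glands.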
